A study of Homo sapiens with 4 samples.

Results

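The 40 genes described here encode proteins that build the mitotic spindle, drive the exit from mitosis and divide the cell at cytokinesis. They were taken by gene symbol from a list of spindle assembly and cytokinesis genes, and all 40 were found among the 54628 genes counted in each table. Poly(A) RNA was taken from Panc1 cells, a human line grown from a carcinoma of the pancreatic duct. The libraries fall into a group of 2 labelled as given small interfering RNA (siRNA) for HMGB2, which encodes a DNA-bending HMG-box protein of chromatin, and a group of 2 labelled as treated with scramble siRNA. The labels give no dose, time or number of siRNA sequences and do not say whether the libraries came from separate cultures, so p-values reflect only how far these libraries spread, and that spread may be technical.

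The transcript named as the siRNA target went against the labels. HMGB2 had 4021 and 2746 counts in libraries labelled HMGB2 siRNA, against 346 and 319 counts in the libraries labelled scramble. The log2 fold change was 3.07 ± 0.08 (SE), with an adjusted p of 1.54e-33 in edgeR's quasi-likelihood test after Benjamini-Hochberg correction. The count column of each table is also headed with the other treatment than its sample's label. Groups are therefore called by their labels together with their HMGB2 level, and "higher" always means higher in libraries labelled HMGB2 siRNA, which were HMGB2-high. Totals ran from 20340695 to 31852391 counts per library, and no member had fewer than 77 counts in any library. Among epithelial markers, the keratin KRT8 was abundant at 2222 to 3019 TPM (a level scaled for transcript length and library). The keratin KRT7 was low at 2.19 to 4.05 TPM, and EPCAM stood at 27.4 to 29.7 TPM. Of 5 fibroblast markers, DCN had no counts and LUM, PDGFRB and COL3A1 were at most 1.251 TPM, but COL1A1 stood at 23.7 to 31.8 TPM. Among leukocyte markers, CD3E had no counts and PTPRC was at most 0.0107 TPM, but CD68 stood at 147.5 to 174.7 TPM. The 3 endothelial markers were at most 0.0383 TPM. Summed fibroblast markers ran from 26.3 to 26.8 TPM in the HMGB2-high libraries and from 24.4 to 32.4 TPM in the HMGB2-low libraries. Summed leukocyte markers also overlapped, at 152.1 to 156.5 TPM in the HMGB2-high and 147.6 to 174.7 TPM in the HMGB2-low libraries. Summed epithelial markers did not overlap, at 6064 to 6097 TPM in the HMGB2-high and 4489 to 5536 TPM in the HMGB2-low libraries.

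As background, a spindle forms when microtubules are nucleated at centrosomes, around chromatin and, through the augmin complex, along existing microtubules. Anaphase begins when the anaphase-promoting complex, a ubiquitin ligase switched on by CDC20, marks securin for destruction and frees separase. The midzone and a RhoA-driven contractile ring then cleave the cell. Many of these genes are transcribed mainly in G2 and mitosis, and their transcripts are used as markers of cycling cells.

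Of the 40 members, 35 rose in libraries labelled HMGB2 siRNA (HMGB2 4021 and 2746 counts) relative to the libraries labelled scramble (HMGB2 346 and 319 counts), 0 fell and 5 did not pass the test. All 40 passed the filter on low counts. Over all 15161 genes tested, 16.7% were called higher and 14.1% lower at an adjusted p under 0.05. Members were chosen with earlier results of these data known, so these shares are a description and not a test. The members had a median log2 fold change of 0.58, set beside -0.01 over all genes tested. For 37 members both libraries labelled HMGB2 siRNA lay above both labelled scramble, and for 0 members below, whereas over all genes tested 32.0% lay above and 31.6% below without overlap. The 5 members that did not pass all belong to augmin.

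Summed over the 40 members, the level was 6469 and 6603 CPM (counts scaled to a common library size with TMM) in libraries labelled HMGB2 siRNA, against 4725 and 4251 CPM in the libraries labelled scramble. Members took 0.638% and 0.646% of all counts in the HMGB2-high libraries, and 0.476% and 0.435% in the HMGB2-low libraries. Both HMGB2-high libraries thus lay above both others and close to each other, and the libraries labelled scramble differed more. Of the 40 members, 33 were higher in scramble replicate 1 than in scramble replicate 2, with a median ratio of 1.12, against 0.999 over all genes tested. Between HMGB2 siRNA replicates 1 and 2, 19 members were higher in replicate 1, with a median ratio of 0.992. HMGB2 itself had 15.7 and 15.3 CPM in scramble replicates 1 and 2, and whether the spread between these libraries has a part in the members' values was not tested.

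Most changes were modest in size. Tested against a 1.5-fold change with edgeR's glmTreat, only DEPDC1B was called higher, where 1.40% of all genes were. DESeq2 called 33 of the 40 members higher and 0 lower, where 15.0% of the 12809 genes with an adjusted p were called higher. In bulk RNA, more cells in G2 or mitosis and more transcript per cell in libraries labelled HMGB2 siRNA cannot be told apart.

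**Figure D1:**
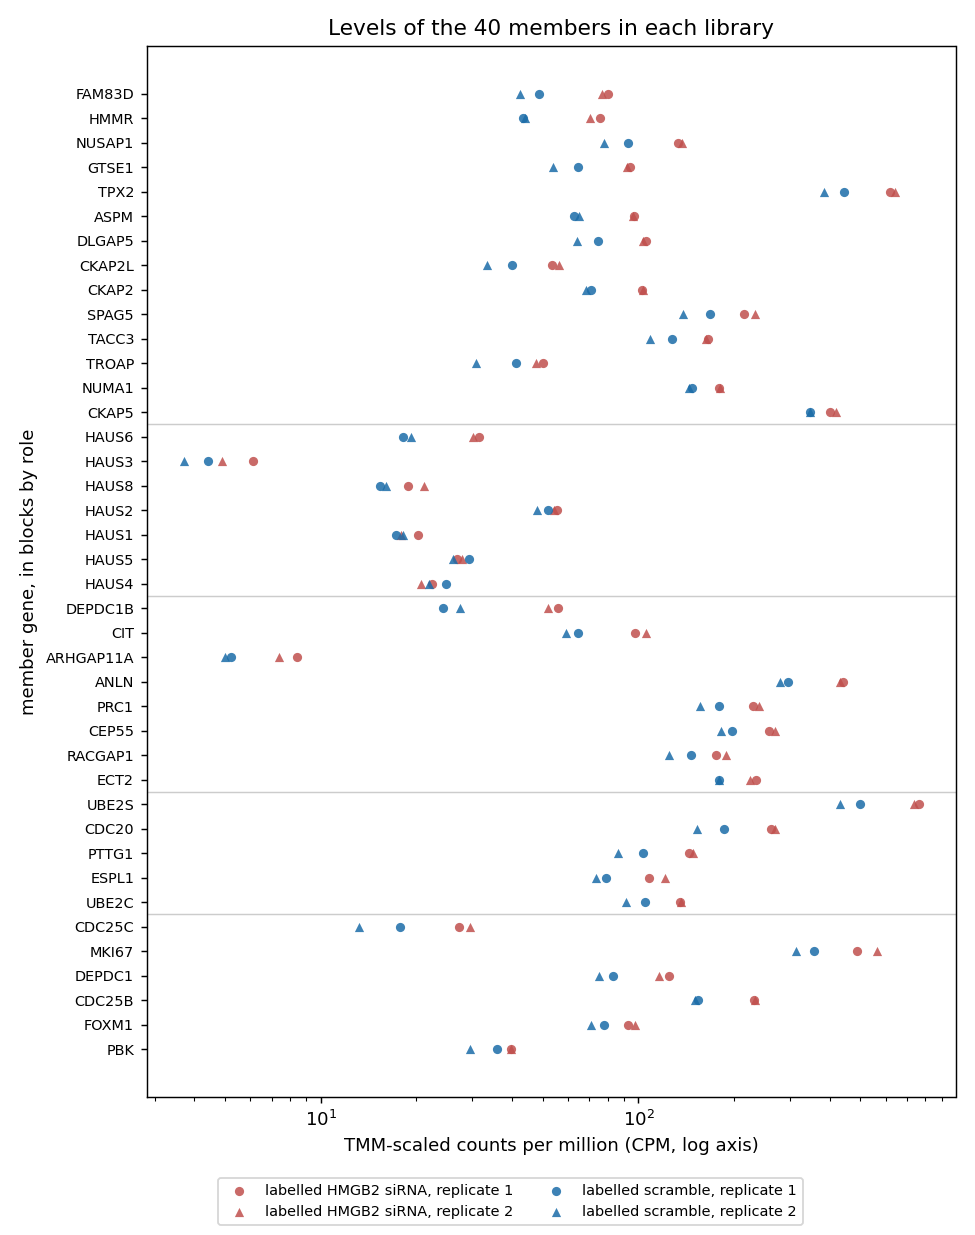
TMM-scaled CPM (log axis) of each member in each of the 4 libraries, with genes in blocks for spindle assembly, augmin, cytokinesis, anaphase, and mitotic entry and proliferation. Red symbols (labelled HMGB2 siRNA, HMGB2-high) lie to the right of blue symbols (labelled scramble, HMGB2-low) without overlap for 37 members, and HAUS1, HAUS4 and HAUS5 overlap.

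**Figure D2:**
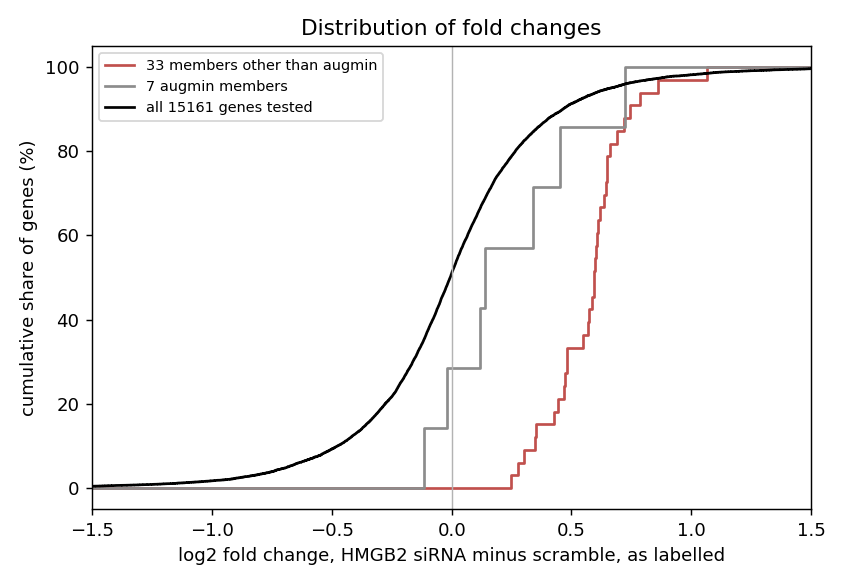
Cumulative share of genes (%) against log2 fold change, labelled HMGB2 siRNA minus labelled scramble. The 33 members other than augmin lie between 0.25 and 1.07, the 7 augmin members between -0.12 and 0.72, and the median of all genes tested is -0.01.

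Promoters of the members are shown to describe the list, and whether their sequence has a part in the fold changes was not tested. As background, promoters of G2 and mitosis genes often hold a cell cycle genes homology region (CHR), bound by the MuvB core of the DREAM and MYBL2-FOXM1 complexes, near the start of transcription, together with CCAAT boxes bound by NF-Y. RefSeq promoters (GRCh38.p14; 250 bases before to 50 bases after each gene start) were in the table used here for 33 members, with 42 starts in all. FAM83D, FOXM1, PBK, RACGAP1, TPX2, TROAP and UBE2C had no entry. The words TTTGAA and TTCGAA, forms of the CHR, and CCAAT were searched on both strands, overlapping matches included. Below are the bases from 200 before to 20 after the start, 5′ to 3′ on the gene's strand, for the member with the largest fold change among those with a promoter in each role (HMMR, DEPDC1B, UBE2S, CDC25C, HAUS6) and for CDC20, with every match in capitals.

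The stretches are chr5:163460432-163460651 (plus strand) for HMMR, chr5:60700147-60700366 (minus strand) for DEPDC1B, chr19:55407769-55407988 (minus strand) for UBE2S, chr1:43358781-43359000 (plus strand) for CDC20, chr5:138331785-138332004 (minus strand) for CDC25C and chr9:19102885-19103104 (minus strand) for HAUS6. CDC25C has 4 listed starts, and the 1 shown was picked by its number of matches within the stretch, a rule that favours motifs. Another CDC25C start tied with it on that number, and the lower coordinate decided. That other start (promoter chr5:138331828-138332127) has its CHR word at 44 and CCAAT boxes at -217, -200 and -12. The CDC25C promoters chr5:138338292-138338591 and chr5:138338306-138338605 hold none of the words.
HMMR: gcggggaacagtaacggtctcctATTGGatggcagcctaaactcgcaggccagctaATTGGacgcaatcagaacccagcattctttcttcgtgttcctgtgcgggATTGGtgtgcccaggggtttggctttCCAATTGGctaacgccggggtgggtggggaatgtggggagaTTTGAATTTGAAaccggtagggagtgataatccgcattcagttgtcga
DEPDC1B: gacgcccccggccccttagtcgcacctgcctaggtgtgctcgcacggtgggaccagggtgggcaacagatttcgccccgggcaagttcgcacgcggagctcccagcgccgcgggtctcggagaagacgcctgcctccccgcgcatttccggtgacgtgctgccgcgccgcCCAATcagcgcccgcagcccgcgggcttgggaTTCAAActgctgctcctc
UBE2S: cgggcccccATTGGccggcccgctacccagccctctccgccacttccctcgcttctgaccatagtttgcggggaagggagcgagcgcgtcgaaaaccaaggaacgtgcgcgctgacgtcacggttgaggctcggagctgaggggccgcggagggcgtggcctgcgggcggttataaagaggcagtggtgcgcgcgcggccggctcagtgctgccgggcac
CDC20: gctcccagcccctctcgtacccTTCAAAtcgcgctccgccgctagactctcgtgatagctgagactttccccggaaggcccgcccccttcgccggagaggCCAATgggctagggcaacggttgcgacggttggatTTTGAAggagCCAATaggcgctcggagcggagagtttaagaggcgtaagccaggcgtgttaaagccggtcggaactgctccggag
CDC25C: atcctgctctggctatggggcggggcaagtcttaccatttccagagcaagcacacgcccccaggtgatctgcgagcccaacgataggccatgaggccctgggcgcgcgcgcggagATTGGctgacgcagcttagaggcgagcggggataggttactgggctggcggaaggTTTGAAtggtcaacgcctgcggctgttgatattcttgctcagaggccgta
HAUS6: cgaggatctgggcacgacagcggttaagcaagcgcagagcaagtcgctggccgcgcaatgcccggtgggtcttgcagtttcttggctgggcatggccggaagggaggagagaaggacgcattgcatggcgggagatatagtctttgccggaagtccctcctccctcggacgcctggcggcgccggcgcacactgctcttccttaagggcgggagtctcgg

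HMMR carried 2 TTTGAA words side by side, their first bases at -28 and -22 from the start, downstream of 5 CCAAT boxes of which 2 overlap on opposite strands. DEPDC1B and the CDC25C start shown each had 1 CHR word nearby, at 3 and -30, with a CCAAT box upstream at -30 and -85. In CDC20 the nearest CHR word began at -65 and a CCAAT box at -55. UBE2S held a CCAAT box at -191 and no CHR word, and HAUS6 held none of the words. No match says only that these letters are missing from this window.

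Of the 26 genes among the members other than augmin with a promoter, 20 (76.9%) held TTTGAA or TTCGAA, 21 (80.8%) held CCAAT and 18 (69.2%) held both in 1 promoter. The shares were 14.9%, 42.2% and 6.24% over 11103 other tested genes, and 19.5%, 39.7% and 7.85% over all 27305 genes in the table. Counted by promoter, they were 64.7%, 70.6% and 55.9% of the 34 promoters of these members, and 16.4%, 34.6% and 6.38% of all 35116 promoters. Of the 7 augmin genes, 1 held a CHR word (HAUS8, at 1 of its 2 starts) and 0 held CCAAT. In 18 of the 20 members with a CHR word at least 1 match lay within 50 bases of the start, compared with 30.9% of the 1655 other tested genes with the word. The 20 members with the word had a median log2 fold change of 0.60. ARHGAP11A, CKAP2, NUMA1, PTTG1, TACC3 and UBE2S, which lacked it, had a median of 0.59 and were all called higher. Among other tested genes, 29.3% of 693 with both kinds of motif in 1 promoter were called higher and 11.8% lower. Of the 1655 with a CHR word, 23.6% were called higher and 12% lower. Of 3801 with CCAAT and no CHR word, 19% were called higher and 13.9% lower. Of 5647 with none of the motifs, 15.6% were called higher and 15.4% lower. The members were listed as genes of mitosis and cell division. Promoters of such genes often hold these words, so high motif shares among members go with that choice. All shares given here are descriptions, and binding was not measured.

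**Figure D3:**
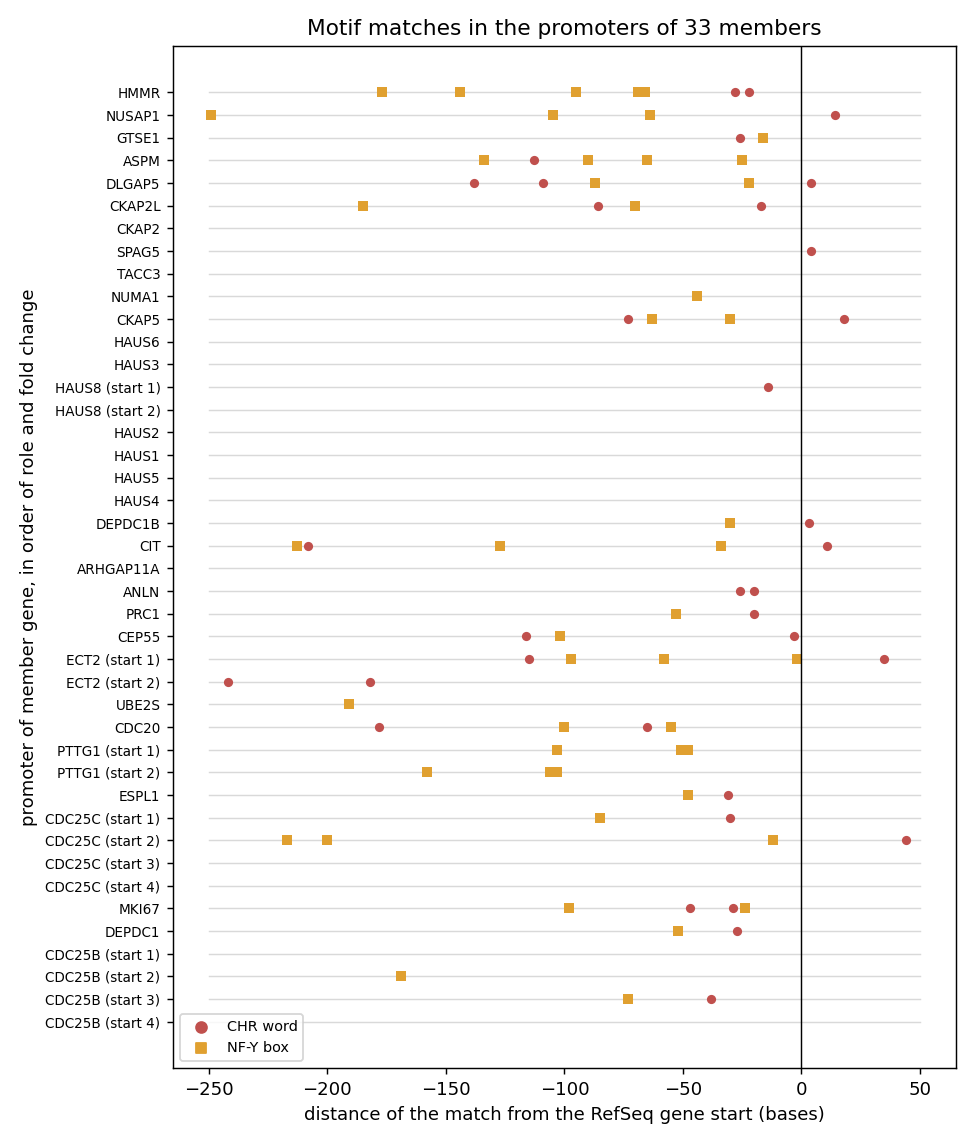
Distance in bases from the gene start to the first base of each match, for the 42 promoters of 33 members, with circles for CHR words and squares for CCAAT (NF-Y) boxes. CHR words gather near the start in members other than augmin, and among augmin promoters only 1 start of HAUS8 has a match.

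Spindle assembly genes were all higher in libraries labelled HMGB2 siRNA (HMGB2 4021 and 2746 counts) than in those labelled scramble (HMGB2 346 and 319 counts). All 14 passed the edgeR test, where 16.7% of all genes did in this direction, with a median log2 fold change of 0.58. FAM83D (chromosome 20, 38926417 to 38953106, plus strand), which brings casein kinase 1 to the spindle, had 2526 and 1578 counts in the HMGB2-high libraries and 1074 and 882 counts in the HMGB2-low libraries. Its level was 80.4 and 76.9 CPM against 48.8 and 42.3 CPM, with no overlap, and it was 1.73-fold higher (log2 fold change 0.79 ± 0.08 SE, adjusted p = 6.48e-12).

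HMMR (chromosome 5, 163460632 to 163491941, plus strand), the hyaluronan-mediated motility receptor that binds spindle microtubules and FAM83D, had 2387 and 1443 counts in libraries labelled HMGB2 siRNA, against 954 and 918 counts in those labelled scramble. That is 75.9 and 70.3 CPM against 43.3 and 44.1 CPM, a 1.68-fold difference (log2 fold change 0.75 ± 0.08 SE, adjusted p = 2.25e-11). NUSAP1, which bundles microtubules near chromatin, had 4177 and 2817 counts against 2047 and 1618 counts. Its CPM values of 133 and 137 against 93.0 and 77.7 do not overlap, and it was 1.58-fold higher. The HMMR and FAM83D proteins work as partners, and both genes stood at the top of this role.

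TPX2, which activates Aurora A and promotes nucleation around chromatin, had the highest level per length of the spindle genes, at a mean of 442 TPM in the HMGB2-high libraries and 294 TPM in the HMGB2-low libraries. It was 1.52-fold higher. GTSE1, which stabilises microtubules, the spindle pole protein ASPM and the kinetochore fibre protein DLGAP5 (HURP) were 1.57-fold, 1.51-fold and 1.51-fold higher. The paralogs CKAP2 and CKAP2L, which bind spindle microtubules, were 1.48-fold and 1.49-fold higher, at mean levels of 60.0 TPM and 28.5 TPM in the HMGB2-high libraries, against 41.1 TPM and 19.4 TPM in the HMGB2-low libraries. SPAG5 (astrin), which secures kinetochore attachments, TACC3, a kinetochore fibre protein, and TROAP (tastin) were 1.46-fold, 1.40-fold and 1.36-fold higher.

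The smallest changes of this role were found for NUMA1, which anchors dynein at the poles, and CKAP5 (chTOG), a microtubule polymerase that acts with TACC3. NUMA1 averaged 180.1 ± 1.2 CPM in libraries labelled HMGB2 siRNA and 146 ± 2.2 CPM in those labelled scramble, and CKAP5 averaged 410.0 ± 11 CPM and 345.6 ± 0.030 CPM (SD, n = 2 each). CKAP5 was 1.19-fold higher (adjusted p = 0.00212), a call lost without HMGB2 siRNA replicate 2 (log2 fold change 0.22, against 0.25 with all libraries). NUMA1 shares 28.1% of its exonic bases with IL18BP and LOC100128494 on the opposite strand. In all, 14 of the 40 members overlap an opposite-strand gene in exonic bases (HMMR, TACC3, GTSE1, NUMA1, CKAP2L, TROAP, HAUS3, PRC1, ANLN, ECT2, DEPDC1B, UBE2S, CDC25C and FOXM1), and whether counting used strand is not given in the sources used here.

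**Figure D4:**
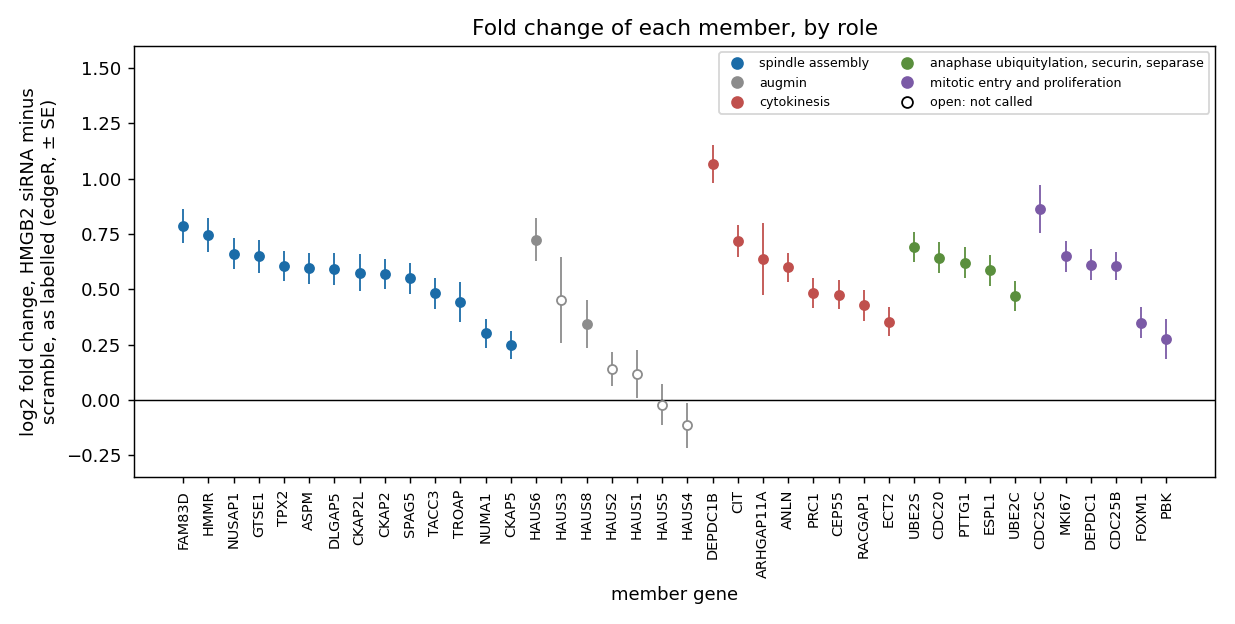
Log2 fold change (labelled HMGB2 siRNA, HMGB2-high, minus labelled scramble, HMGB2-low) of each member with its SE from edgeR, coloured by role, with open symbols for members that did not pass the test. DEPDC1B is highest at 1.07, and the 5 open symbols are augmin genes.

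Most augmin genes did not pass the test. Of the 7 subunit genes measured here, HAUS6 and HAUS8 rose in libraries labelled HMGB2 siRNA (HMGB2 4021 and 2746 counts) relative to those labelled scramble (HMGB2 346 and 319 counts), and 5 did not pass. That is 28.6% called higher, where 16.7% of all genes were. HAUS6 (chromosome 9, 19053141 to 19102904, minus strand), the subunit that contacts the γ-tubulin ring complex through NEDD1, had 991 and 618 counts in the HMGB2-high libraries against 400 and 401 counts in the HMGB2-low libraries. Its 31.5 and 30.1 CPM against 18.2 and 19.2 CPM make it 1.65-fold higher (log2 fold change 0.72 ± 0.10 SE, adjusted p = 4.37e-08). HAUS8, which binds the older microtubule, had 592 and 434 counts against 339 and 334 counts. It was 1.27-fold higher (log2 fold change 0.34 ± 0.11 SE, adjusted p = 0.0127), and DESeq2, or leaving out HMGB2 siRNA replicate 2, ended this call.

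HAUS3 had 192 and 100 counts in the HMGB2-high libraries and 97 and 77 counts in the HMGB2-low libraries, with a log2 fold change of 0.45 ± 0.19 (SE) and an adjusted p of 0.0708. It is the least abundant subunit at 2.30 TPM against 1.72 TPM, and it shares 37.6% of its exonic bases with POLN and COX6B1P5. HAUS2 had a log2 fold change of 0.14 ± 0.08 and HAUS1 of 0.12 ± 0.11, while HAUS5 and HAUS4 stood at -0.02 ± 0.09 and -0.12 ± 0.10 (SE). The libraries of the labelled groups overlapped for HAUS1, HAUS4 and HAUS5. Without scramble replicate 1, HAUS2 and HAUS3 also passed, but more of all genes tested were called higher too. Without HMGB2 siRNA replicate 2 only HAUS6 passed, and fewer of all genes tested were called. Augmin genes had a lower median level than the other members, at 22.4 CPM over subunits against 110.2 CPM over the 33 other members. The augmin median was near the 21.6 CPM over all genes tested. The difference between augmin and the other members was not tested.

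Cytokinesis genes also rose throughout in libraries labelled HMGB2 siRNA (HMGB2 4021 and 2746 counts) relative to those labelled scramble (HMGB2 346 and 319 counts). All 8 passed, where 16.7% of all genes were called higher, with a median log2 fold change of 0.54. DEPDC1B (chromosome 5, 60596912 to 60700166, minus strand), a protein with a DEP domain and a RhoGAP-like domain, had 1758 and 1065 counts in the HMGB2-high libraries and 534 and 570 counts in the HMGB2-low libraries. Its 55.9 and 51.9 CPM against 24.3 and 27.4 CPM gave the largest difference of any member, 2.09-fold (log2 fold change 1.07 ± 0.09 SE, adjusted p = 1.51e-14). Both HMGB2-high values lay above both HMGB2-low values.

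CIT, the citron kinase of the midbody, had 3062 and 2172 counts in libraries labelled HMGB2 siRNA, against 1416 and 1231 counts in those labelled scramble. At 97.4 and 106 CPM against 64.3 and 59.1 CPM it was 1.64-fold higher (log2 fold change 0.72 ± 0.07 SE, adjusted p = 1.61e-11). ANLN (anillin), a scaffold of the contractile ring, had 13816 and 8830 counts against 6513 and 5803 counts and was 1.51-fold higher. Both genes had groups that do not overlap.

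Among the other regulators of the midzone, furrow and midbody, log2 fold changes ran between 0.35 for ECT2 and 0.64 for ARHGAP11A. PRC1, which cross-links the midzone, and CEP55, which recruits the abscission machinery to the midbody, were 1.40-fold and 1.39-fold higher. RACGAP1, a centralspindlin subunit, and ECT2, the RhoA exchange factor it recruits, were 1.34-fold and 1.28-fold higher. ECT2 averaged 229 ± 7.0 CPM in the HMGB2-high libraries and 179.7 ± 0.064 CPM in the HMGB2-low libraries (SD, n = 2 each). ARHGAP11A, a RhoA GTPase-activating protein, had 264 and 152 counts against 115 and 104 counts and was 1.56-fold higher, a call lost without HMGB2 siRNA replicate 1 (log2 fold change 0.54). Its level is not comparable with the others, because the table lists 144 of its exons on alternative sequences of the assembly and 31.1% of its exonic bases are shared with the readthrough gene ARHGAP11A-SCG5.

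All 5 anaphase genes rose in libraries labelled HMGB2 siRNA (HMGB2 4021 and 2746 counts) relative to those labelled scramble (HMGB2 346 and 319 counts), with a median log2 fold change of 0.62, where 16.7% of all genes were called higher. UBE2S (chromosome 19, 55399745 to 55408439, minus strand), which extends ubiquitin chains on substrates of the anaphase-promoting complex, had 23979 and 15131 counts in the HMGB2-high libraries and 10998 and 8974 counts in the HMGB2-low libraries. With 763 and 737 CPM against 499.6 and 431 CPM, it was 1.61-fold higher (log2 fold change 0.69 ± 0.07 SE, adjusted p = 1.03e-11). Per length it had the highest level of the members with comparable lengths, at a mean of 545 TPM in the HMGB2-high libraries and 343 TPM in the HMGB2-low libraries. UBE2C, which starts those chains, was 1.38-fold higher, with 135 ± 0.72 CPM against 97.8 ± 9.5 CPM (SD, n = 2 each).

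CDC20 (chromosome 1, 43358981 to 43363203, plus strand), the activator of the complex, had 8230 and 5502 counts in libraries labelled HMGB2 siRNA, against 4100 and 3191 counts in those labelled scramble. It was 1.56-fold higher (log2 fold change 0.64 ± 0.07 SE, adjusted p = 1.86e-10), and its promoter stretch above holds both motifs. PTTG1 (securin) had 4520 and 3051 counts against 2283 and 1801 counts and was 1.54-fold higher. ESPL1 (separase), the protease that securin restrains, had a log2 fold change of 0.59 ± 0.07, against 0.62 ± 0.07 for PTTG1 (SE). Per length, PTTG1 averaged 254 TPM in the HMGB2-high libraries and 168 TPM in the HMGB2-low libraries, and ESPL1 41.0 TPM and 27.7 TPM.

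Genes of mitotic entry and proliferation were called higher in 6 of 6 cases in libraries labelled HMGB2 siRNA (HMGB2 4021 and 2746 counts) relative to those labelled scramble (HMGB2 346 and 319 counts), where 16.7% of all genes were. CDC25C (chromosome 5, 138285265 to 138338355, minus strand), a phosphatase that activates CDK1, had 854 and 603 counts in the HMGB2-high libraries and 392 and 274 counts in the HMGB2-low libraries. Its 27.2 and 29.4 CPM against 17.8 and 13.2 CPM made it 1.82-fold higher (log2 fold change 0.86 ± 0.11 SE, adjusted p = 1.16e-08). CDC25B, the related phosphatase that starts CDK1 activation at centrosomes, had 7243 and 4771 counts against 3392 and 3133 counts and was 1.52-fold higher. It was the more abundant of the pair per length, at 153 TPM against 27.1 TPM for CDC25C in the HMGB2-high libraries.

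MKI67, which encodes the proliferation marker Ki-67 that coats mitotic chromosomes, had 15340 and 11589 counts in libraries labelled HMGB2 siRNA, against 7873 and 6533 counts in those labelled scramble. At 488 and 565 CPM against 358 and 314 CPM it was 1.57-fold higher (log2 fold change 0.65 ± 0.07 SE, adjusted p = 1.43e-10). DEPDC1, a DEP domain protein related to DEPDC1B, had 3929 and 2377 counts against 1825 and 1560 counts and was 1.53-fold higher. FOXM1, a transcription factor of G2 and M genes, had 92.5 and 97.6 CPM in the HMGB2-high libraries, against 78.1 and 70.9 CPM in the HMGB2-low libraries, a 1.27-fold difference. It shares 12.1% of its exonic bases with ITFG2 on the opposite strand. PBK, a mitotic kinase, was 1.21-fold higher (adjusted p = 0.0139), but this call was lost with total-count scaling, with DESeq2, with either HMGB2 siRNA library left out and without scramble replicate 2 (log2 fold change 0.15 without scramble replicate 2).

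Other genes of the same machinery were examined in 6 lists outside the members. Of 77 such genes tested, 34 rose in libraries labelled HMGB2 siRNA (HMGB2 4021 and 2746 counts) relative to those labelled scramble (HMGB2 346 and 319 counts), 5 fell and 38 did not pass, with 16.7% of all genes called higher and 14.1% lower. With either HMGB2 siRNA library left out, fewer of the 77 were called in each direction, and so were fewer of all genes tested. A call lost in those fits, here and elsewhere, need not be particular to the gene named. With upper-quartile scaling the split was 30 higher and 12 lower, and over all genes it was 2035 higher and 2809 lower, against 2536 and 2135 with TMM.

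The chromosomal passenger, centralspindlin and midzone kinesin genes rose throughout. All 10 passed, where 16.7% of all genes were called higher, with a median log2 fold change of 0.55. The kinase PLK1 (1.83-fold) and the midzone kinesins KIF4A (1.64-fold) and KIF20A (1.57-fold) led this list. PLK1 averaged 164 ± 0.40 CPM in the HMGB2-high libraries and 89.6 ± 12 CPM in the HMGB2-low libraries (SD, n = 2 each). Among 14 genes of the contractile ring and septins, 8 (57.1%) rose and 2 fell, where 16.7% of all genes were called higher and 14.1% lower. The share that fell was near that over all genes. The 2 were SEPTIN2 and ROCK1, both calls lost with either HMGB2 siRNA library left out. SEPTIN11 averaged 146 ± 2.8 CPM in HMGB2-high and 70.9 ± 2.8 CPM in HMGB2-low libraries (SD, n = 2 each), a 2.06-fold difference. The myosin heavy chain MYH10 was 1.62-fold and SEPTIN9 1.49-fold higher, while RHOA itself, the switch of the ring, had a log2 fold change of -0.02 and did not pass. PLK1 overlaps ERN2, KIF20A overlaps CDC23 and TUBG1 overlaps RETREG3 on the opposite strand, and SEPTIN11 and MYH10 overlap uncharacterised genes there.

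Fewer than all genes of the anaphase-promoting complex itself passed. Of 16 genes, which include its activator FZR1 and its inhibitor FBXO5, 7 (43.8%) rose in the HMGB2-high libraries, 1 fell (CDC26) and 8 failed the test. Over all genes tested, 16.7% were called higher and 14.1% lower. The median log2 fold change of the 16 genes was 0.09, and the call of CDC26 was lost with DESeq2 and with either HMGB2 siRNA library left out. CDC27 was 1.32-fold, ANAPC7 1.28-fold and ANAPC15 1.65-fold higher, and 30.1% of the exonic bases of ANAPC15 are shared with LRTOMT and TOMT on the opposite strand. Fewer of the 16 genes were called higher with either HMGB2 siRNA library left out, as was so over all genes tested. Of 11 genes of the γ-tubulin ring group, which includes the augmin subunit HAUS7, 3 (27.3%) rose, where 16.7% of all genes did. The 3 were MZT1 (log2 fold change 0.93), TUBG1 (1.36-fold) and NEDD1 (1.17-fold). The call of NEDD1 was lost with either HMGB2 siRNA library left out and without scramble replicate 1 (log2 fold change 0.08). It was also lost with DESeq2, upper-quartile or total-count scaling and thinned libraries. HAUS7 had a log2 fold change of -0.04 and did not pass, like most augmin members.

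Abscission genes of the ESCRT machinery, which cut the last bridge between daughter cells, mostly did not pass. Of 14 tested, 2 rose (SPAST, a microtubule-severing enzyme, 1.87-fold, and CHMP5, 1.56-fold) and 2 fell (PDCD6IP with a log2 fold change of -0.25, and TSG101 with -0.19) in libraries labelled HMGB2 siRNA (HMGB2-high). These are 14.3% in each direction, near the 16.7% higher and 14.1% lower over all genes tested. The median log2 fold change of the list was -0.10, and for 10 of the 14 both HMGB2-high libraries lay below both HMGB2-low libraries, where 31.6% of all genes did. With upper-quartile or total-count scaling 6 fell, and with DESeq2, thinned libraries or no filter 1 fell. Fits with either HMGB2 siRNA library left out lost the lower calls, as they lost calls over all genes. CHMP3 had 10 and 3 counts in the HMGB2-high libraries and 3 and 8 counts in the HMGB2-low libraries and was not tested. It shares 95.5% of its exonic bases with the same-strand readthrough gene RNF103-CHMP3, so these counts need not reflect its expression. Of 12 genes of the DREAM and MuvB complexes, which act at CHR words, 4 rose and 0 fell, namely TFDP2 (1.37-fold), MYBL2 (1.26-fold), RBL1 (1.39-fold) and RBBP4 (1.13-fold). RBBP4 shares 54.1% of its exonic bases with SYNC on the opposite strand. With upper-quartile or total-count scaling 3 of the 12 were called higher, and with thinned libraries 5. Leaving out 1 library moved the count both ways, down for either HMGB2 siRNA library and up for either scramble library. E2F4, the main E2F subunit of DREAM, had a log2 fold change of -0.07 and did not pass.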

How the data were processed

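Poly(A) RNA of Panc1 cells was sequenced in 4 libraries. Per the file headers, each deposited table gives a raw read count for every gene over its listed exons. The submitters' processing notes name STAR, SAMtools 1.9, featureCounts of Subread 1.6.3 and DESeq2 with the build hg38 (GRCh38); strand and multimapping settings are not given in the sources used here. Groups follow the sample labels, which file names and column headers contradict.

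Counts were tested over all genes with edgeR 4.0.16 in R 4.3.3 (glmQLFit and glmQLFTest, group as the only term, TMM, filterByExpr with a smallest count of 10 and total of 15), and genes with a Benjamini-Hochberg adjusted p under 0.05 were called. The SE is the log2 fold change divided by the square root of F. The common biological coefficient of variation was 0.0507. TPM used the listed exon lengths. A value compared over 2 against 2 libraries cannot give an exact two-sided permutation p below 0.333. Replicates differed by more than sampling noise (chi-square per degree of freedom 3.10 for HMGB2 siRNA and 5.68 for scramble). The procedure was tested on simulated counts. The values of 1 marker gene are not reported here.

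Members, roles and lists were chosen with earlier results of these data known. Values in every library are given for the 3 members of each role with the smallest p and the 1 with the largest change, and up to 3 genes of each list are named by p; other genes of the lists were named after their values were seen, as was CDC20 among the promoters shown. The alternatives used scaling by RLE, by upper quartile and by total count, no filter, a mean of at least 1 CPM, DESeq2 1.42.0, limma-voom (limma 3.58.1), glmTreat, a replicate block, thinned libraries and leaving out each library. Motif counts and figures used Python 3.11.15 and matplotlib 3.10.9.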

Additional observations from a re-analysis of the deposited data

How the results depend on the processing

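Of the 40 members, 38 kept a positive log2 fold change under all 14 alternatives, and 30 lost a call under the test against a 1.5-fold change and under no other. That test left 1 member and 4 genes of the pathway lists called higher, and 0 of the lists lower. The count of members called higher was 33 to 35 under the other settings with all libraries. It moved both ways when 1 library was left out, as did the count over all genes tested. Genes of the lists called lower numbered 5, against 12 with upper-quartile and 12 with total-count scaling, 3 with DESeq2 and 0 to 7 when 1 library was left out. The members' median log2 fold change was 0.58, with 0.49 to 0.65 when 1 library was left out, 0.65 without scramble replicate 1 and 0.49 without scramble replicate 2. HAUS5, which was not called, ran from -0.10 to 0.07 in those fits, with 0.00404 without HMGB2 siRNA replicate 1 and 0.067 without scramble replicate 1. The cause of these shifts was not tested. Deviations of libraries with the same replicate number had a correlation of -0.0196 over all genes tested. With 2 libraries per group this cannot tell whether the libraries were paired. A fit with the replicate block called 35 members and 3 DREAM and MuvB genes higher, the 3 against 4 without the block. The lowest member count was 77, in HAUS3, and thinning all libraries to the smallest total left 35 members called higher.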
